A study of Mus musculus with 8 samples.

Results

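The SoxF transcription factors Sox7, Sox17 and Sox18 and the arteriovenous identity genes Gja4, Gja5, Bmx, Nr2f2 and Slc6a2 were examined in tumor endothelial cells (TECs) as 8 genes chosen by symbol from the 33641 symbols listed. All 8 were above 0 in every library and passed the filter on low values, as did 14964 genes in all. RNA came from CD45-CD31+ cells sorted by FACS from Lewis lung carcinoma (LLC) tumors, which grow from a mouse lung tumor line placed in the left lung of C57Bl/6 mice, and was collected on day 21 after injection of 10000 cells. There were 4 libraries labelled control (C1 to C4) and 4 of endFoxf1+/- mice (H1 to H4). Tamoxifen (3 mg by gavage, at 6 to 8 weeks of age) is described for mice that receive tumor cells, with no distinction between the groups. In endFoxf1+/- mice (Pdgfb-iCreER; Foxf1 fl/+) it activates a Cre recombinase driven by the Pdgfb promoter and deletes exon 1 of 1 Foxf1 allele in endothelial cells, while the other allele stays intact. The labels of the control libraries say only "control", and the study describes its controls both as littermates with a single transgene and as wild-type mice, so whether they carried Cre or the floxed allele is not given for these libraries. Whether a library holds cells of 1 mouse or of several is likewise not stated, and the p-values measure the spread between libraries.

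SoxF proteins bind DNA through an HMG box and act together, with overlapping roles, in the growth and specification of blood and lymphatic vessels. Arterial identity depends on Notch signaling and on SoxF factors, of which SOX17 is the one most tied to arteries, whereas SOX18 is known for starting lymphatic specification through Prox1. NR2F2 (COUP-TFII), a nuclear receptor, maintains venous identity by holding Notch signaling down. Gja4 (connexin 37) and Gja5 (connexin 40) encode gap junction channels of arterial endothelium, Bmx encodes a Tec family tyrosine kinase found in arterial endothelium, and Slc6a2 encodes the noradrenaline transporter, through which lung vessels clear noradrenaline from blood.

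On GRCm38 (GENCODE vM21), Sox7 lies at chr14:63943673-63950732 on the plus strand, Sox17 at chr1:4490931-4497354 on the minus strand and Sox18 at chr2:181669836-181671640 on the minus strand. The 80 coding bases below show a part of the HMG box sequences of Sox7 and Sox18 side by side. They end in the longest run of bases that the transcripts of these genes share exactly, 20 bases, in capitals. They lie in exon 2 of Sox7 (chr14:63947784-63947863) and exon 2 of Sox18 (chr2:181670888-181670967), each written 5′ to 3′ along the transcript.
Sox7: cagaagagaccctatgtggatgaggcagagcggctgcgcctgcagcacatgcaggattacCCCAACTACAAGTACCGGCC
Sox18: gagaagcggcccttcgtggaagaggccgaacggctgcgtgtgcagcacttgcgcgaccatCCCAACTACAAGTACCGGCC
Over these 80 bases, a window chosen to end in that exact match, Sox7 and Sox18 were identical at 80.0% of positions. For the transcripts of Gja4 and Gja5 the longest run shared exactly was also 20 bases. A read inside such a run cannot be assigned to 1 gene, and the read length is not given in the sources used here. Exons of Sox17, Gja5, Nr2f2 and the targeted gene Foxf1 overlap exons on the other strand, of Gm37587, Gpr89, B130024G19Rik and Gm27530. For these genes reads from both strands may be mixed, since no source used here says that the counting used strand.

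Gja4 lies at chr4:127311421-127314039 (minus), Gja5 at chr3:96904693-97077416 (plus), Bmx at chrX:164192842-164258193 (minus), Nr2f2 at chr7:70351944-70366735 (minus) and Slc6a2 at chr8:92960079-93001667 (plus). The RefSeq promoters (GRCm38.p6, 250 bases before to 50 after the start) of Gja4 at chr4:127313990-127314289 and of Bmx at chrX:164258144-164258443 are shown because these 2 were the arterial genes with a match to the SOX core. The search was for ACAAT on either strand, and matches are in capitals.
Gja4: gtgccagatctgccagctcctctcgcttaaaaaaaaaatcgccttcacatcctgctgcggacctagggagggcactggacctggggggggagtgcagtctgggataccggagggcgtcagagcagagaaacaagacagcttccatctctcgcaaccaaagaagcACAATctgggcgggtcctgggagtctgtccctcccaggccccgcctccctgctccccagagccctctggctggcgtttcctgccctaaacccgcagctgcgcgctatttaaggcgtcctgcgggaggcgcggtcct
Bmx: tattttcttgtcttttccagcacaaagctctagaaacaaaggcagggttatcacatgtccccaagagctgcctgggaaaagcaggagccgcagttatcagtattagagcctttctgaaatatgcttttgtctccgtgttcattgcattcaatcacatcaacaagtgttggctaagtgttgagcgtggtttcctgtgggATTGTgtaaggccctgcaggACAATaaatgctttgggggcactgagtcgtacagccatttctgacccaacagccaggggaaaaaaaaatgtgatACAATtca
The Gja4 promoter held 1 match and the Bmx promoter 3, whereas those of Gja5 and Nr2f2 held 0, and 31.0% of the 32851 promoters hold at least 1. None of these 4 promoters held the FOX core TAAACA on either strand, which 13.4% of all promoters hold. Promoters of Sox7, Sox17, Sox18 and Slc6a2 were not analysed here. A match describes the letters only, and binding was not measured.

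The targeted gene was read first, as a check of the labels. Foxf1 (chr8:121084386-121088144, plus), a forkhead factor of lung endothelium and mesenchyme, was at 213, 285, 296 and 331 TPM in C1 to C4 and at 177, 203, 14.04 and 105 TPM in H1 to H4. All 4 endFoxf1+/- libraries were below all 4 control libraries, with a log2 difference of -1.68 ± 0.72 (SE). Two-sided exact permutation gave p = 0.0286, the smallest possible for 4 libraries against 4, and the adjusted p of limma was 0.790. TPM are transcript abundances corrected for length and set to an equal total in each library, and since they hold no read number the depth is unknown. The endothelial marker level, the geometric mean TPM of 20 markers such as Pecam1 and Cdh5, stood at 104, 101, 85.9 and 109% of the control mean in C1 to C4, and at 107, 107, 5.59 and 59.98% in H1 to H4. H3 and H4 thus stood apart from the other 6 libraries, and the members' results are given with and without them. Mean Foxf1 was 281.5 TPM in control and 124.8 TPM in endFoxf1+/- libraries, but 189.9 TPM over H1 and H2 alone. Relative to the endothelial marker level the log2 difference of Foxf1 was -0.53 (exact permutation p = 0.0571), with 3 of 4 endFoxf1+/- libraries below all controls. In such bulk samples fewer endothelial cells and less endothelial RNA per cell cannot be told apart.

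None of the 8 genes differed between the groups at an adjusted p under 0.05, and neither did any other gene (0% of 14964). In 7 of 8 the log2 difference was below 0, against 68.0% of all genes, and the median over the 8 was -1.17, against -0.17 over all genes tested. The endothelial markers themselves had a median of -1.15. Without H3 and H4 the median over the 8 genes was 0.21 and 3 of them were below 0, near the values over all genes in the same fit, a median of 0.14 with 4382 of 14964 below 0. An unadjusted p under 0.05 was reached by 1 member, Slc6a2, and by 5.59% of all genes. For no member were the groups fully separated in TPM, which held for 5.04% of genes. A p that misses the threshold does not show that the values were alike.

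**Figure D1:**
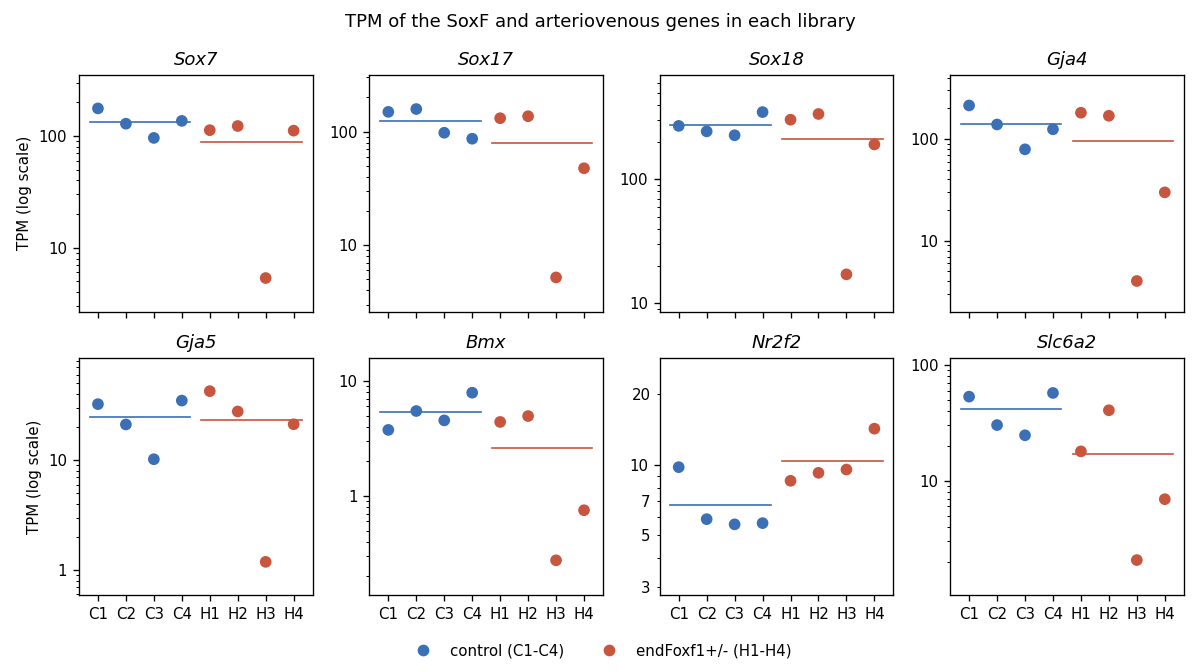
TPM (vertical axis, log scale) of the 8 genes in each library, with blue points for control, red points for endFoxf1+/- and a line at each group mean. H3 is the lowest library for 7 genes, from 0.276 TPM for Bmx to 17.1 TPM for Sox18, while Nr2f2 stays between 8.55 and 14.3 TPM in the endFoxf1+/- libraries.

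Among the SoxF factors, Sox18 had the highest level. It was at 271, 244, 227 and 349.8 TPM in C1 to C4 and at 304, 338, 17.1 and 192 TPM in H1 to H4. H1 and H2 lay within the control range, and H3 and H4 lay below all controls. Mean levels were 273 ± 54.2 TPM in control and 213 ± 144 TPM in endFoxf1+/- (SD, n = 4 each). The log2 difference of -0.97 ± 0.82 (SE) had an adjusted p of 0.797 in limma and an exact permutation p of 0.514. It was 0.0033 without H3 and 0.25 without H3 and H4. Sox18 was thus not lower once the library of lowest endothelial level was left out.

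Sox7 was at 177, 129, 96.2 and 137 TPM in the control libraries and at 113, 123, 5.35 and 112 TPM in the endFoxf1+/- libraries. The groups overlapped, since 3 endFoxf1+/- libraries lay between 112 and 123 TPM, within the control range, and H3 alone was below it. The log2 difference was -1.23 ± 0.87 (SE; limma adjusted p = 0.790, exact permutation p = 0.257), and it was -0.18 without H3 and -0.16 without H3 and H4. Sox17, the arterial member, was at 149, 158, 97.6 and 86.5 TPM in control and at 131, 136, 5.21 and 47.5 TPM in endFoxf1+/-. Here both H3 and H4 lay below all controls, and H1 and H2 lay inside the control range. Its log2 difference was -1.31 ± 0.87 (SE; limma adjusted p = 0.790, exact permutation p = 0.286). Leaving out H3 gave -0.32, and leaving out H3 and H4 turned it to 0.17.

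Of the connexins of arterial endothelium, Gja4 was at 213, 139, 79.1 and 124 TPM in C1 to C4 and at 181, 169, 4.03 and 29.9 TPM in H1 to H4. H1 and H2 were above 3 of the 4 controls, and H3 and H4 were below all of them. The log2 difference of -1.49 ± 1.02 (SE; limma adjusted p = 0.790, exact permutation p = 0.371) became -0.42 without H3 and 0.42 without H3 and H4. Gja5 was lower in level, at 32.4, 21.2, 10.2 and 34.9 TPM in control and at 42.5, 27.8, 1.19 and 21.2 TPM in endFoxf1+/-. The groups overlapped widely, with H1 above all controls and H3 below them. The log2 difference was -0.57 ± 0.85 (SE; limma adjusted p = 0.855, exact permutation p = 0.771), and it was 0.38 without H3 and 0.60 without H3 and H4.

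Bmx had the lowest control mean of the 8 genes, although Nr2f2 was below it in C4. It was at 3.75, 5.48, 4.54 and 7.90 TPM in C1 to C4 and at 4.40, 4.95, 0.276 and 0.751 TPM in H1 to H4. Again only H3 and H4 were below the controls. The log2 difference was -1.10 ± 0.52 (SE; limma adjusted p = 0.790, exact permutation p = 0.171), with -0.70 without H3 and -0.14 without H3 and H4.

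The venous regulator Nr2f2 was the only member with a higher mean in endFoxf1+/- libraries. It was at 9.78, 5.87, 5.58 and 5.64 TPM in C1 to C4 and at 8.55, 9.25, 9.55 and 14.3 TPM in H1 to H4. All 4 endFoxf1+/- libraries were above C2, C3 and C4, but C1 was above 3 of them, so the groups overlapped. Mean levels were 6.72 ± 2.05 TPM in control and 10.4 ± 2.61 TPM in endFoxf1+/- (SD, n = 4 each). The log2 difference was 0.57 ± 0.28 (SE; limma adjusted p = 0.790, exact permutation p = 0.114). It was 0.60 without H3 and 0.39 without H3 and H4, positive in both cases. Without C1 the groups would not overlap, a separation for which the share of all genes was not computed.

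Slc6a2 had the lowest unadjusted p of the 8 genes. It was at 53.2, 30.2, 24.7 and 57.2 TPM in C1 to C4 and at 17.9, 40.6, 2.07 and 6.93 TPM in H1 to H4. H1, H3 and H4 were below all controls, and H2 was within their range. Mean levels were 41.4 ± 16.3 TPM in control and 16.9 ± 17.1 TPM in endFoxf1+/- (SD, n = 4 each), with a log2 difference of -1.76 ± 0.71 (SE; limma unadjusted p = 0.0338, adjusted p = 0.790, exact permutation p = 0.0857). Its unadjusted p was above the threshold of 0.05 without C1 (0.0787), C4 (0.0800), H3 (0.0726) or H4 (0.0895) in limma. The difference was -1.12 without H3 and -0.51 ± 0.42 (SE) without H3 and H4. H1, in which Slc6a2 was low, had an endothelial marker level of 107% of the control mean. Sympathetic neurons, which the CD31+ sort should remove, also carry this transporter. The summed TPM of 7 of their markers was 5.25 to 7.23 in control and 8.09, 6.57, 2.94 and 6.89 in H1 to H4, given mostly by Slc18a2 and Ddc, while Th was under 1 TPM and Dbh listed at 0 in all 8 libraries. Their part in the Slc6a2 values was not tested.

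**Figure D2:**
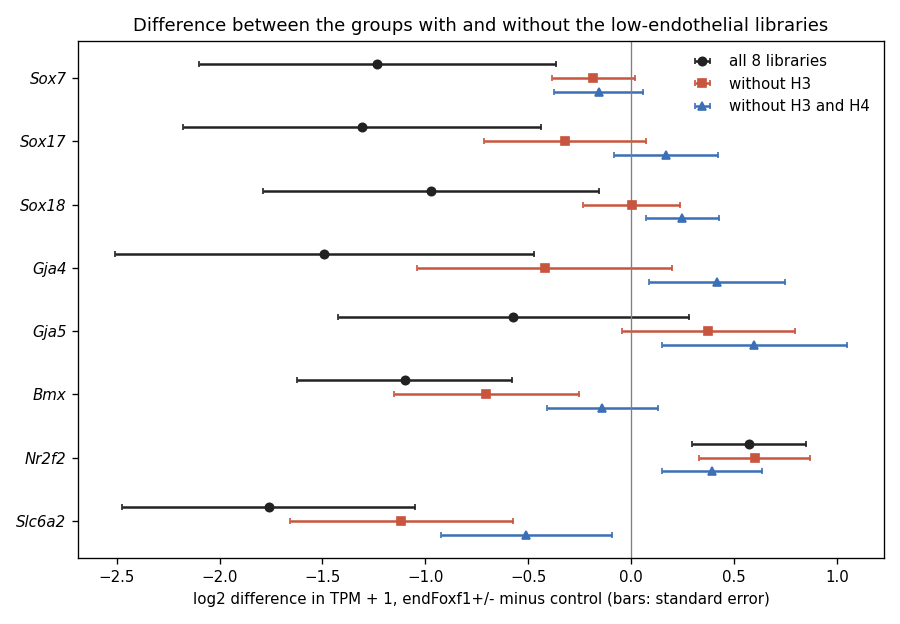
Log2 difference in TPM + 1 between endFoxf1+/- and control libraries (horizontal axis) for each gene, as points with standard errors from limma, for all 8 libraries (black), without H3 (red) and without H3 and H4 (blue). Nr2f2 stays above 0 and Slc6a2, Bmx and Sox7 below 0 in the 3 fits, while Sox17, Sox18, Gja4 and Gja5 lie above 0 without H3 and H4.

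In control libraries the order of mean TPM was Sox18 (273), Gja4 (139), Sox7 (135), Sox17 (123), Slc6a2 (41.4), Gja5 (24.7), Nr2f2 (6.72) and Bmx (5.42). Control ranges overlapped between Gja4 and Sox7, Sox7 and Sox17, Slc6a2 and Gja5, and Nr2f2 and Bmx, so the ranges do not separate these neighbours. Within each control library, however, Slc6a2 was above Gja5 in 4 of 4, Nr2f2 above Bmx in 3 of 4, and Gja4 above Sox7 and Sox7 above Sox17 in 2 of 4 each. Ranges did not overlap between Sox18 and Gja4, Sox17 and Slc6a2, and Gja5 and Nr2f2. In endFoxf1+/- libraries Slc6a2 was above Gja5 in 2 of 4 and Nr2f2 above Bmx in 4 of 4.

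To read the genes against endothelial transcripts, the TPM of each was divided by the endothelial marker level of its library. Across the 8 libraries that level differed 19.5-fold between the highest and the lowest. On this scale no member reached the threshold over all genes in limma, where the smallest adjusted p among them was 0.519 and 1 gene passed (0.00668% of those tested). Of all genes 1.98% had an unadjusted p under 0.05 and 8.25% had groups that did not overlap, and the 8 genes had 0 and 0. The median relative log2 difference of the 8 was -0.019, against 0.98 over all genes tested.

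Of the SoxF genes, Sox18 stood at 58.0, 54.0, 59.0 and 71.4% of the endothelial marker level in C1 to C4 and at 63.4, 70.04, 68.3 and 71.2% in H1 to H4. All 4 endFoxf1+/- libraries, H3 included, were inside the control range. Its highest ratio was 1.32-fold the lowest, against a median of 1.62-fold for the markers themselves, while Sox7 (1.95-fold) and Sox17 (1.97-fold) ranged more widely than that median. Sox7 stood at 37.9, 28.5, 25.0 and 27.9% in control and at 23.6, 25.5, 21.3 and 41.5% in endFoxf1+/-, and Sox17 at 31.9, 34.8, 25.3 and 17.65% and at 27.4, 28.3, 20.8 and 17.66%. Both overlapped between the groups, Sox7 with 2 endFoxf1+/- libraries below and 1 above all controls, and Sox17 in H3 and H4 was inside the control range, where its TPM had been below it. The relative log2 differences were 0.18 for Sox18, -0.086 for Sox7 and -0.16 for Sox17, with exact permutation p of 0.143, 0.629 and 0.571. Without H3 and H4 they were 0.15, -0.26 and 0.066.

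The summed TPM of the 3 SoxF genes was 596, 531, 421 and 573 in C1 to C4 and 548, 597, 27.7 and 351 in H1 to H4. Divided by the endothelial marker level it was 117.8 ± 7.60% in control and 120 ± 9.07% in endFoxf1+/- libraries (SD, n = 4 each), between 109 and 130.4% in all 8. Its range was 1.19-fold, while the sum itself ranged 21.6-fold. Sox18 made up 45.4, 46.0, 54.0 and 61.0% of the sum in control and 55.5, 56.6, 61.9 and 54.6% in endFoxf1+/-, the largest share in every library. Sox17 had shares of 15.1 to 29.7% in control and 13.5 to 23.9% in endFoxf1+/-, and Sox7 of 22.8 to 29.6% and 19.3 to 31.9%. Shares of all 3 genes overlapped between the groups.

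**Figure D3:**
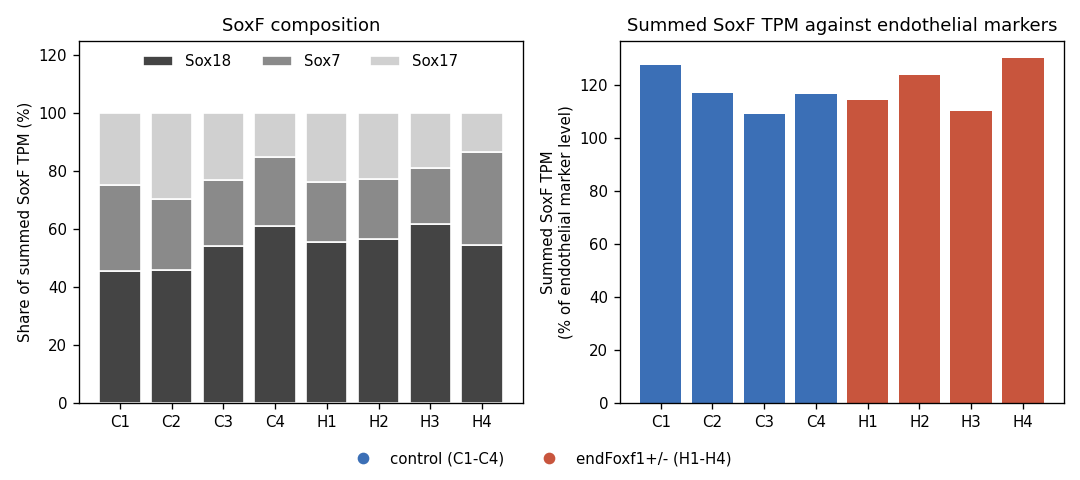
Left, share of the summed SoxF TPM (percent) given by Sox18, Sox7 and Sox17 in each library. Right, summed SoxF TPM as a percentage of the endothelial marker level, in blue for control and red for endFoxf1+/-; all 8 bars lie between 109 and 130.4%.

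The arterial genes ranged more widely against the markers, 4.11-fold for Gja4, 3.36-fold for Gja5 and 5.78-fold for Bmx, where the SoxF genes ranged 1.32- to 1.97-fold. Gja4 stood at 45.7, 30.6, 20.5 and 25.4% of the endothelial marker level in C1 to C4 and at 37.8, 35.03, 16.1 and 11.1% in H1 to H4, so that H3 and H4 stayed below all controls and H1 and H2 lay inside their range. The relative log2 difference was -0.34 (exact permutation p = 0.514), and it was -0.0051 without H4 and 0.31 without H3 and H4. Gja5 stood at 6.94, 4.67, 2.65 and 7.12% in control and at 8.88, 5.76, 4.72 and 7.89% in endFoxf1+/-, with 2 libraries above all controls. Its relative log2 difference was 0.58 (exact permutation p = 0.143), and 0.50 without H3 and H4. The ratio of Gja4 to Gja5 TPM was 6.58, 6.56, 7.75 and 3.57 in control and 4.25, 6.08, 3.40 and 1.41 in endFoxf1+/-, overlapping between the groups with H3 and H4 below all controls. Bmx stood at 0.804, 1.21, 1.18 and 1.61% in control and at 0.919, 1.03, 1.10 and 0.279% in endFoxf1+/-. Only H4 was below the control range, and H3, where Bmx TPM was lowest, was inside it. For Bmx the pseudocount of 1 weighs on the log scale: the relative log2 difference was 0.047 with it (exact permutation p = 0.971) and -0.67 without it (exact permutation p = 0.229). Without H3 and H4 these were -0.24 and -0.26.

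Over all libraries Nr2f2 departed most from the endothelial markers, but without H3 the relative log2 difference of Slc6a2 (-0.94) was larger in size than that of Nr2f2 (0.77). Nr2f2 stood at 2.10, 1.30, 1.45 and 1.15% of the endothelial marker level in C1 to C4 and at 1.79, 1.92, 38.1 and 5.30% in H1 to H4. H3 and H4 were above all controls, while H1 and H2 were inside the control range. The relative log2 difference was 1.72 (exact permutation p = 0.0857), and it was 0.77 without H3 and 0.29 without H3 and H4. Nr2f2 is not restricted to veins, being expressed in lymphatic endothelium and in fibroblasts as well, and other cell markers moved in the same libraries. The summed TPM of 8 fibroblast markers, which include the collagens Col1a1 and Col3a1, was 66.0 to 122 in control and 204, 131, 1429 and 331 in H1 to H4, and 7 of the 8 had a higher mean in endFoxf1+/-. The sum in H3 was carried by Col3a1 and Dcn (556 and 533 TPM), and 5 of the 8 were highest there, but not Col1a1, Col1a2 or Postn. The summed TPM of 8 lymphatic markers was 478 to 730.0 in control and 627, 818, 85.8 and 684 in H1 to H4. In H4, where Nr2f2 TPM was highest, that sum lay within the control range. There 4 of the 8 (Prox1, Reln, Mmrn1 and Itga9, at 3.53, 5.55, 28.0 and 60.6 TPM) were at their highest, and the other 4 (Lyve1, Ccl21a, Flt4 and Pdpn, at 443, 94.2, 39.9 and 8.69 TPM) were not. The part of fibroblasts and lymphatic endothelium in the Nr2f2 values was not tested.

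Slc6a2 stood at 11.4, 6.68, 6.41 and 11.7% of the endothelial marker level in control and at 3.74, 8.42, 8.23 and 2.58% in endFoxf1+/-. H1 and H4 were below all controls, and H2 and H3 were inside their range. The relative log2 difference was -0.61 (exact permutation p = 0.286), and it was -0.94 without H3, -0.29 without H4 and -0.61 without both. The ratio of Slc6a2 to Nr2f2 TPM was 5.44, 5.15, 4.43 and 10.2 in control and 2.10, 4.39, 0.216 and 0.486 in endFoxf1+/-. Each endFoxf1+/- library had a lower ratio than each control library, by a narrow margin between H2 (4.39) and C3 (4.43). This ratio was chosen after the values were seen and is given as a description with no test.

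**Figure D4:**
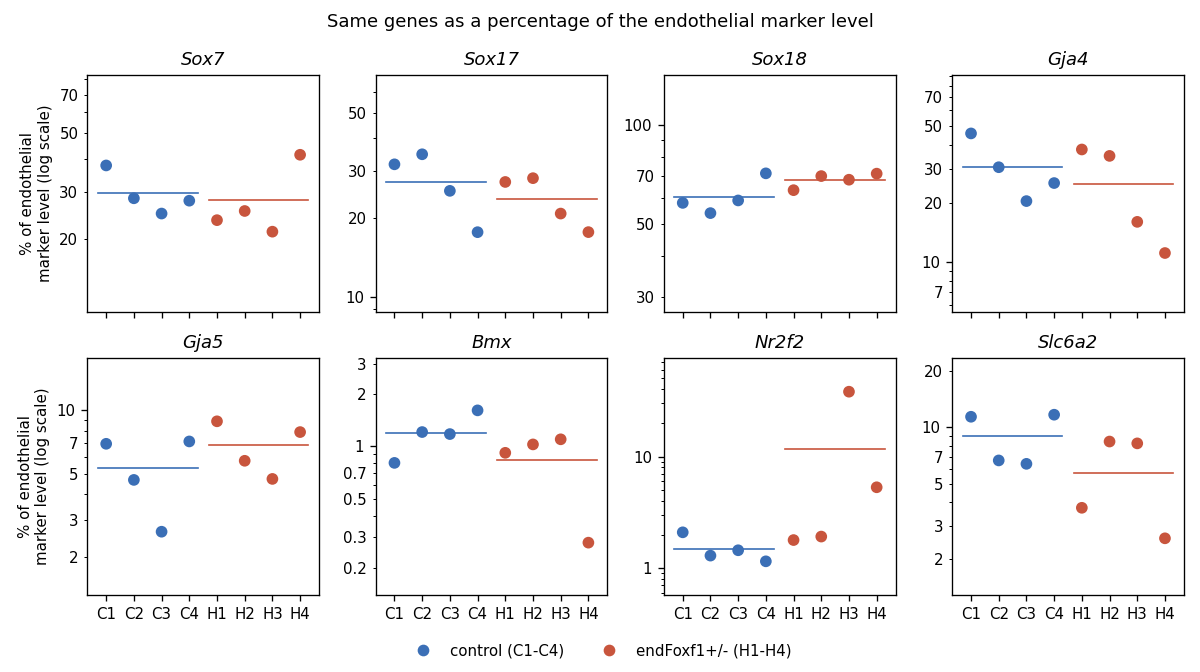
TPM of each gene as a percentage of the endothelial marker level of its library (vertical axis, log scale), with blue points for control, red points for endFoxf1+/- and a line at each group mean. Sox18 lies between 54.0 and 71.4% in all 8 libraries, while Nr2f2 reaches 38.1% in H3.

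Genes of the same vessel types were counted in the same fit, and none of those named below had an adjusted p under 0.05 in limma. Over all genes tested 68.0% were lower, and without H3 and H4 4382 of 14964 were, and the counts of each list below are to be read beside these. Of 20 other arterial genes 18 were lower and 2 higher in mean log2 TPM, with a median of -0.81, and without H3 and H4 8 were lower with a median of 0.17, close to the median of 0.14 over all genes there. Epas1 (HIF-2alpha), Mgp, an inhibitor of calcification, and Nrp1, a VEGF and semaphorin co-receptor, had the highest control levels among them, with log2 differences of -1.34, -0.77 and -1.06 and overlapping groups. Without H3 these were -0.42, -0.34 and -0.21, and without H3 and H4 -0.043, -0.20 and -0.087. Cxcr4, the CXCL12 receptor, was the only arterial gene with an unadjusted p under 0.05, at 0.70 higher. Of 15 other venous genes 11 were lower and 4 higher, with a median of -0.61, and without H3 and H4 6 were lower with a median of 0.19. Nrp2, a co-receptor of venous and lymphatic endothelium, was at 19.9, 17.3, 11.1 and 15.1 TPM in control and at 28.8, 22.6, 84.7 and 38.4 TPM in endFoxf1+/-. All 4 endFoxf1+/- libraries were above all controls. The highest was H3, where the summed fibroblast and myeloid markers were highest as well, and their part in the Nrp2 values was not tested. The log2 difference of Nrp2 was 1.25 ± 0.39 (SE; exact permutation p = 0.0286, limma adjusted p = 0.790), and 0.69 without H3 and H4. Full separation of the groups by itself gives this exact p, here and for Gja1 and Slc6a4 below, so it adds nothing to the separation. Vwf, the von Willebrand factor, was at 639, 617, 329 and 722 TPM in control and at 251, 338, 21.7 and 179 TPM in endFoxf1+/-, where H2 alone was above the lowest control (log2 difference -2.02, exact permutation p = 0.0571). This difference was -1.16 without H3 and -0.92 without H3 and H4. Summed platelet and erythroid markers were also below all controls in H1 to H4, and their part in the Vwf values was not tested. Amigo2 was the other venous gene that was lower at an unadjusted p under 0.05. Lrg1 and Csrp2, also among the highest venous genes, had log2 differences of -0.37 and -0.61 and overlapping groups, and were at 0.12 and 0.19 without H3 and H4.

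Of 13 capillary genes 13 had a lower mean log2 TPM, as did 20 of 20 endothelial markers and 68.0% of all genes, and 0 had an adjusted p under 0.05 in limma, with 5 at an unadjusted p under 0.05 (Car4, Ednrb, Fibin, Tbx2 and Hpgd, all lower), against 414 of 14964 genes that were lower at such a p. Their median was -1.39, and without H3 and H4 it was -0.58 with 9 of 13 lower, against 4382 of 14964 genes. Hpgd, which breaks down prostaglandins, was at 1200, 1316, 1282 and 1506 TPM in control and at 340.1, 649, 45.0 and 176 TPM in endFoxf1+/-. Its groups did not overlap, nor did those of Car4 (carbonic anhydrase 4 of alveolar capillaries), Tbx2 and Chst1, which makes 4 of 13 against 5.04% of all genes, and Gpihbp1, the capillary anchor of lipoprotein lipase, overlapped. The log2 differences without H3 and H4 were -1.49 for Hpgd, -0.73 for Car4, -0.89 for Tbx2, -0.58 for Chst1 and 0.30 for Gpihbp1. Of 8 lymphatic markers 7 were tested, 5 lower and 2 higher, with a median of -0.51. Without H3 and H4 the median turned to 0.25, with 2 lower. Lyve1, Ccl21a and Flt4 overlapped between the groups (log2 differences -0.64, -0.51 and -0.87, and 0.31, 0.25 and 0.085 without H3 and H4). Pdpn, which fibroblasts carry as well, had groups that did not overlap, with 4.30 to 4.82 TPM in control and 8.15, 5.34, 18.0 and 8.69 TPM in H1 to H4.

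The families of the members were read in the same way. Of 16 other Sox genes 6 were tested, 5 of them lower with a median of -0.50, and without H3 and H4 2 of 6 were lower with a median of 0.094. Sox13, the most abundant, overlapped between the groups (log2 difference -0.89, turning to 0.31 without H3 and H4). Sox11 and Sox4 overlapped as well (-1.47 and -0.085, and -0.46 and 0.064 without H3 and H4). Sox5 was at 1.86 to 3.02 TPM in control and at 0.276, 1.47, 0.0585 and 0.234 TPM in H1 to H4, all below the controls, a low level on which a pseudocount of 1 weighs. Of 18 other connexins 3 were tested. Gja1 (connexin 43), which fibroblasts and epithelium also carry, was at 28.2, 24.6, 26.1 and 17.0 TPM in control and at 29.3, 28.3, 53.9 and 64.0 TPM in endFoxf1+/-, all above the controls. H2 (28.28) exceeded C1 (28.24) only narrowly. This gave a log2 difference of 0.78 (exact permutation p = 0.0286, limma adjusted p = 0.790), and 0.28 without H3 and H4. Gjc1 and Gjb6 overlapped (-0.16 and 0.20, and 0.50 and 0.024 without H3 and H4). Of the 4 other Tec family kinases, all tested, 1 was lower and 3 higher, and Tec (0.55), Btk (-0.068) and Txk (0.026) overlapped, with Tec turning to -0.24 without H3 and H4.

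The COUP-TF relatives of Nr2f2 differed from each other in direction over all 8 libraries, a contrast that was not tested. Nr2f1 (COUP-TFI) was at 1.42, 1.06, 0.867 and 0.633 TPM in control and at 1.88, 1.73, 7.36 and 2.23 TPM in endFoxf1+/-, all 4 above the controls, with H3 the highest (log2 difference 0.95, and 0.50 without H3 and H4). Nr2f6 was at 16.6 to 21.7 TPM in control and overlapped between the groups, with a log2 difference of -0.43. This was -0.21 without H3 and -0.046 without H3 and H4.

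Among 10 other genes of amine uptake and breakdown, 5 were tested and 4 were lower. Slc6a4, the serotonin transporter and a relative of Slc6a2, was at 11.7, 18.8, 14.3 and 14.6 TPM in control and at 6.81, 4.18, 2.22 and 6.74 TPM in endFoxf1+/-. Every endFoxf1+/- library was below every control library. The log2 difference was -1.47 ± 0.33 (SE; exact permutation p = 0.0286, limma adjusted p = 0.790) and was -1.30 without H3 and H4. Platelets also carry this transporter, and the summed TPM of 8 platelet and erythroid markers was 1041 to 2094 in control and 695, 691, 428 and 1006 in H1 to H4, all below the controls. Their part in the Slc6a4 values was not tested. The enzyme Maoa (log2 difference -0.73) overlapped between the groups, and was at -0.33 without H3 and -0.050 without H3 and H4.

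Markers of other cells differed in level between libraries. Summed TPM of 20 endothelial markers was 12250 to 15320 in control and 14580, 14730, 742 and 7702 in H1 to H4. Myeloid markers summed to 1451 to 5105 in control and to 2553, 1801, 8298 and 4684 in H1 to H4, most of it Lyz2, which alveolar epithelium also makes. Ptprc, which encodes CD45, the antigen gated out, was at 2.94 to 9.13 TPM in control and at 16.5, 9.93, 91.2 and 6.61 TPM in H1 to H4. Epithelial markers summed to 6453 to 30640 and to 10250, 2414, 1550 and 23100, mural cell markers to 68.6 to 102 and to 85.5, 68.0, 40.1 and 39.9, and lymphocyte markers to 15.9 to 23.0 and to 27.0, 30.1, 110.4 and 16.1. Their part in the members' values was not tested.

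Genes whose log2(TPM + 1) followed each member most closely were taken by Pearson's r over the 8 libraries, a description in which libraries share their endothelial level and H3 weighs heavily. Sox18 was closest to Pecam1, Ece1 and Lats2 (r = 0.998, 0.998 and 0.997), and its median r with the 20 endothelial markers was 0.984. That median was 0.976 for Sox7, 0.963 for Sox17, 0.937 for Gja4, 0.917 for Gja5, 0.852 for Slc6a2 and 0.803 for Bmx, but -0.258 for Nr2f2. The closest genes were Plekhf2, Tti1 and Crim1 for Sox7, Zfp873, Prex2 and Ttc28 for Sox17, Parp12, Tpra1 and Zfp39 for Gja4, and Zc3h4, Olfr1315-ps1 and Tmem181a for Gja5, with r from 0.993 to 0.998. They were Ostm1, Rnasek and Reck for Bmx, Ccdc24, Sept11 and Mrps30 for Nr2f2, and Syf2, Ctdnep1 and Plcb3 for Slc6a2, with r from 0.970 to 0.998. Over the 6 libraries without H3 and H4 the median r with the endothelial markers was 0.552 for Gja5, 0.524 for Sox18, 0.481 for Gja4, 0.426 for Sox7, 0.349 for Nr2f2, 0.311 for Slc6a2, 0.246 for Bmx and 0.159 for Sox17, so that neither the order of the 8 genes nor the negative sign of Nr2f2 held there. The closest genes over these 6 were Ccnd2, Zfp653 and Safb for Sox7, Med23, Zfp873 and Dnajb7 for Sox17, 2700049A03Rik, Chchd5 and Eif2s3x for Sox18, and Mfsd10, Sparcl1 and Pgrmc2 for Gja4. For the others they were Abcf3, Erap1 and Ice1 (Gja5), Sema6a, Rsu1 and 9130213A22Rik (Bmx), Gnl2, Trim6 and Zfp599 (Nr2f2), and Naa38 and Syf2 (Slc6a2). Zfp873 for Sox17 and Syf2 for Slc6a2 were among the closest 3 in both sets of libraries.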

How the data were processed

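RNA-seq of CD45-CD31+ TECs was analysed for 4 control and 4 endFoxf1+/- libraries, grouped by the genotype in the labels. The authors deposited TPM per gene symbol for each library. The authors' processing notes at submission list TopHat, Cufflinks, Subread and DESeq2 with GRCm38 and mm10, and which tool gave the TPM is not stated. The library kit was Nextera XT. TPM keep no depth, and the error is taken from the replicate libraries. No 2 of the 8 libraries held identical values. Replicate numbers only name libraries.

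TPM were used as deposited. Genes reaching a TPM of 1 in 4 or more libraries were fitted on log2(TPM + 1) with limma 3.58.1 (R 4.3.3, eBayes with an intensity trend) and Benjamini-Hochberg adjustment over 14964 genes, at a threshold of 0.05; a fold on this scale understates the change of low genes. The DESeq2 step of the authors needs counts and was not repeated. Single genes were compared by exact two-sided permutation of the 8 libraries (scipy 1.17.1, Python 3.11.15), over 70 assignments with a smallest p of 0.0286. Relative differences are log2(TPM + 1) minus the mean over 20 endothelial markers, and percentages of the endothelial marker level are TPM over the geometric mean of these markers. H3 and H4 were set apart as the libraries under 75% of the control mean of that level. Beside the 8 genes and Foxf1, the text names, in each list of vessel and family genes, the 3 of highest control mean and every gene whose groups did not overlap, and the 3 genes closest to each member; Cxcr4, Amigo2, Ednrb, Fibin and the neuronal and remaining lymphatic markers were added after their values were seen, and a few items under this rule are not reported here. The members and lists were chosen with earlier results of these data known. Coordinates are from GENCODE vM21, in which all 8 symbols were found, and promoters from RefSeq. Alternatives were other pseudocounts, filters, scalings, weights, covariates and reference markers, and libraries left out.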

Additional observations from a re-analysis of the deposited data

Results flagged for a closer look

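In 32 groups of 4 values (TPM and percent of the endothelial marker level of each gene in each group), a single library far from the other 3 was found 3 times; chance flags about 1 group in 20. Sox7 was at 5.35 TPM in H3, where the other endFoxf1+/- libraries were at 112 to 123 TPM. Nr2f2 was at 9.78 TPM in C1, where the other controls were at 5.58 to 5.87 TPM. Nr2f2 relative to the endothelial marker level was 38.1% in H3, where the other endFoxf1+/- libraries were at 1.79 to 5.30%.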

How the results depend on the processing

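Of 143 log2 differences of the 8 genes under alternatives, 131 kept direction and side of the threshold and 12 changed sign, and of 128 relative differences 117 and 11 did. The side of a relative difference was read from its exact p. With any library left out that p cannot fall below 0.0571, so only the direction could change there. No paired analysis was possible because the replicate numbers, given in the order of the samples, only name the libraries and tie none of them to a shared litter, batch or day. With array weights, 148 genes passed, 3 members were lower, the median was 0.10, and Sox17, Sox18, Gja4 and Gja5 were at 0.049, 0.15, 0.33 and 0.65. With the endothelial level as a covariate, 1 gene passed, 0 members had an unadjusted p under 0.05 in limma, the median was -0.075, and Sox18 and Gja5 were at 0.18 and 0.56. Quantile normalization and median-ratio scaling gave 3 members with such a p each, and moved the median of all genes by 0.12 and 0.16. The share of all genes with such a p was not computed for these scalings, so the counts cannot be read against a background. Without H3 and H4, 3 genes passed, 0 members had such a p, 3 were lower, the median was 0.21, and Sox17, Sox18, Gja4 and Gja5 were at 0.17, 0.25, 0.42 and 0.60. Leaving out 1 library at a time gave 0 to 1 genes past the threshold (1 without C1 or H3), 0 to 2 members with such a p (0 without C4, H3 or H4, Nr2f2 without C1, Slc6a2 without C2 or C3, and Slc6a2 and Bmx without H1 or H2), 5 to 7 lower members, a median of -1.53 to -0.25 and 0 to 1 members without overlap (Nr2f2 without C1, Sox7 without C3, Slc6a2 without H2). Over these, Sox18 ranged from -1.40 to 0.0033 and Gja5 from -1.06 to 0.38, with both highest values without H3. The shares of all genes with such a p or without overlap were not computed for these reduced sets. Full separation by chance is more frequent with 3 libraries against 4 (smallest exact p 0.0571) than with 4 against 4 (0.0286). On the relative scale Sox7 ranged from -0.28 (without H4) to 0.034 (without C1) and Bmx from -0.53 (without H3) to 0.43 (without H4). Relative to the markers, Bmx turned to -0.056 (Pecam1 alone), -0.030 (the 10 lowest markers), -0.53 (pseudocount 0.1), -0.67 (no pseudocount, chosen after seeing the data), -0.10 (without C1) and -0.24 (without H3 and H4), Sox7 to 0.018 (pseudocount 5), and Sox17 and Gja4 to 0.066 and 0.31 (without H3 and H4). Bmx did not pass a minimum of 5 TPM. The causes were not tested. Depth is unknown, and leaving out H3 alone moved the median of the 8 genes from -1.17 to -0.25.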
